A study of Mus musculus with 8 samples.

Results

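Trophectoderm cells that lacked both B-type lamins were compared with trophectoderm cells that carried intact lamin B genes, on 4 of the 8 two-colour oligonucleotide arrays of a mouse series. The members were the arrays titled TE/Cdx2ER with either the LB dKO or the wt label, 2 arrays of each genotype, and the other 4 arrays held embryonic stem cells (ESCs) of the same genotypes. The lines were male mouse ESCs derived from blastocysts of Lmnb1+/-;Lmnb2+/- intercrosses on a mixed C57BL/6, 129S4Sv/Jae and 129S6/SvEvTac background. Every line, wild type included, carried a randomly integrated transgene that expresses Cdx2 fused to an estrogen receptor domain from the CAG promoter, selected with puromycin. Trophectoderm (TE) cells were made from them by 2 days of 4-hydroxytamoxifen at 1 ug/ml in a medium with 30% trophoblast stem (TS) medium, FGF4 and heparin, then 6 days in TS medium alone. The labels mention 2 independent lines per genotype but do not say which line each array holds, so the tests measure the spread between these arrays, which may be technical. One annotation field of the wild-type TE arrays reads gene knockout, while their titles and genotype fields read wild type, and the groups follow the titles. Each array set the labelled cells, in Cy3, against a common reference pool, in Cy5, with no dye swap.

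Lamin B1 and lamin B2 are intermediate filament proteins of the nuclear lamina, the meshwork that lines the inside of the nuclear envelope, contacts chromatin and is anchored to the cytoskeleton. The trophectoderm is the outer epithelium of the blastocyst, which gives rise to the fetal part of the placenta, and Cdx2 is a transcription factor that specifies it. ESCs forced to activate Cdx2 turn towards this fate, which gives a second cell type without lamin B from the same lines. What was asked here is which transcripts differ between the genotypes in TE cells, and how large a difference the arrays could have missed.

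The probes carry identifiers only and are named by them here, so the deletion of the lamin genes could not be checked on the arrays, nor could the cell type against trophectoderm markers. Of 42006 probes, between 25687 (61.2%) and 28556 (68.0%) were well above background on a TE array, and no sample spot was saturated. Probes were tested if both arrays of at least 1 group had them well above background and no spot was an outlier, which left 27360, of which 24083 passed that background criterion on each of the 4 TE arrays. All 4 TE arrays shared a slide and all 4 ESC arrays shared another, so slide and cell type cannot be told apart, while the genotypes were compared within a slide. In whole cultures, fewer cells of a type and less RNA per cell cannot be told apart.

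Few probes separated the genotypes beyond the spread between arrays. At a Benjamini-Hochberg adjusted p of 0.05 in limma, 6 of 27360 probes (0.0219%) passed, 1 higher (0.00365%) and 5 lower (0.0183%) in lamin B null TE cells. The probes are 60 bases long, and 5 of the 6 that passed are shown next, with 2 discussed further on, to identify the transcripts measured. All are given 5′ to 3′ in lower case as the array files hold them, with no part marked.
Z00048585-1: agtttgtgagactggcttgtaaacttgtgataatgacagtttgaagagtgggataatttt
Z00036741-1: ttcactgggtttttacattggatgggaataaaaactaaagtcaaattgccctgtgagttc
Z00070209-1: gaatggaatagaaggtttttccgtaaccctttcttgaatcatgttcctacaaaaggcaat
Z00062996-1: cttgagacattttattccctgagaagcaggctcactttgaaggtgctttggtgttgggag
Z00076280-1: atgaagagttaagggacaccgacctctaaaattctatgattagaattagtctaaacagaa
Z00063059-1: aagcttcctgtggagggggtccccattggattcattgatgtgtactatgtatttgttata
Z00046024-1: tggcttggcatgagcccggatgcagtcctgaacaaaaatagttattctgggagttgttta

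The smallest adjusted p belonged to probe Z00048585-1. Its log2 ratio of sample to reference was 3.62 and 3.60 on wild-type arrays 1 and 2, and 0.21 and 0.12 on null arrays 1 and 2. The genotypes were far apart and the arrays of a genotype nearly equal. The difference was -3.44 ± 0.12 (SE, n = 2 against 2), 10.9-fold lower, with a limma adjusted p of 0.00155. Only 1 of the 2 null arrays had the probe well above background.

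The next 3 probes also fell to ratios near 0 in null cells. Probe Z00036741-1 read 3.57 and 3.30 in wild type and 0.37 and 0.12 in null cells, a difference of -3.19 ± 0.22 (SE), for which limma gave an adjusted p of 0.0272. Probe Z00070209-1 read 2.86 and 3.27 in wild type against 0.46 and 0.31 in null cells, a difference of -2.68 ± 0.18 (SE) and the same adjusted p of 0.0272 in limma. Both kept a clear gap between the lowest wild-type and the highest null array. Probe Z00062996-1 read 2.40 and 2.18 in wild type and 0.05 and 0.04 in null cells, a difference of -2.25 ± 0.12 (SE) with a limma adjusted p of 0.00982. It was not well above background on either null array, and its normalized sample signal was 4.78-fold lower there. On null array 2 that fold rests on the probe's own undetected signal, so it is not a firm lower limit.

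These 4 probes also had a dim reference, with log2 reference signals of 5.83 to 6.38, and in null cells both channels were close to background. Each fell to near the detection limit. Z00036741-1 was still well above background on both null arrays, at log2 sample signals of 6.83 and 6.58. For the others the full size of the fall was not measured, and at Z00036741-1 it may not have been. The remaining lower probe, Z00056538-1, was bright in both channels, with a log2 reference signal of 14.05. Its log2 ratio was -1.75 and -2.03 in wild type and -4.49 and -4.23 in null cells, a difference of -2.47 ± 0.19 (SE) with a limma adjusted p of 0.0367. Even in null cells its log2 sample signal was 9.69 and 9.87, well inside the measured range.

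One probe rose. Z00076280-1 had a log2 ratio of -3.45 and -3.20 on the wild-type arrays and 0.54 and -0.16 on the null arrays. The null arrays differed from each other by more than the wild-type arrays did, yet both lay far above them. The difference was 3.51 ± 0.27 (SE), 11.4-fold higher, with a limma adjusted p of 0.0367. Its log2 sample signal was 6.91 and 6.93 in wild type and 10.58 and 9.84 in null cells.

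How many probes passed depended on which arrays entered the fit. All 8 arrays shared the estimate of spread, and with the 4 TE arrays alone no probe passed in limma, where 399 had an unadjusted p under 0.05 and the smallest adjusted p was 0.367. Leaving out wild-type array 2 raised the count to 1187, and leaving out null array 1 lowered it to 0, with 1334 at an unadjusted p under 0.05. Without null array 2 it was 2, and without wild-type array 1 it was 5, of which 3 were among the 6. Leaving out any one of the 4 ESC arrays, which enter only through the spread, left 1 probe. In every alternative that measured them, the 6 probes kept their direction. The split by direction rests on few calls. Higher in null cells were 16.7% of the 6 here, 33.3% of 21 without background subtraction and 30.0% of 10 in the sample channel alone. Probe Z00048585-1 lost its call under 7 of 20 alternatives and Z00056538-1 under 17 of 21. At an adjusted p of 0.10, 21 probes passed in limma, 8 higher and 13 lower.

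**Figure D1:**
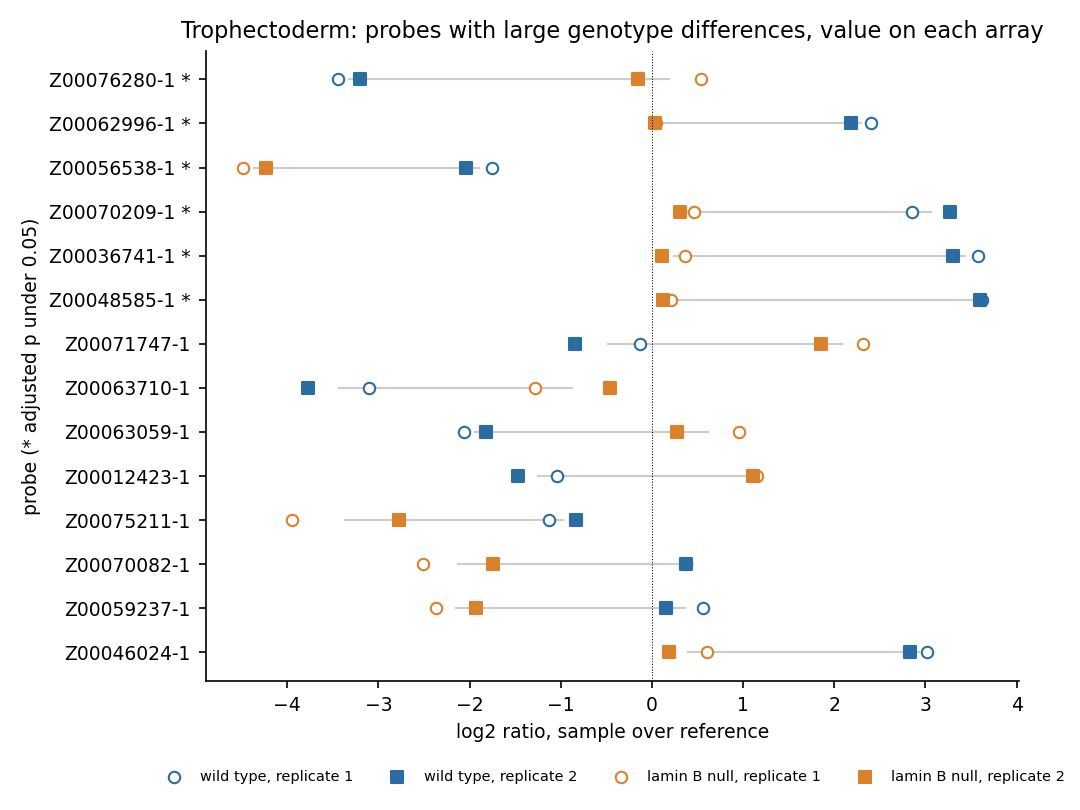
Log2 ratio of sample to reference on each of the 4 TE arrays, for the named probes that passed the test or changed most; each point is 1 array. For the 6 probes that passed, both null arrays lie on the same side of both wild-type arrays, as at Z00048585-1, where wild type read 3.62 and 3.60 and null 0.21 and 0.12.

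Outside those 6, large differences did not pass the test. Among 27360 probes, the 2 null arrays lay wholly above or below the 2 wild-type arrays at 6415 (23.4%), 3240 higher and 3175 lower. With only 2 arrays of each genotype, such separation is common without any genotype effect. The means differed by over 2-fold at 236 probes (0.863%), and at 136 (0.497%) they did so without overlap, 66 higher and 70 lower. Of those 136, 17 differed by over 4-fold, 6 higher and 11 lower. An unadjusted p under 0.05 was reached by 957 probes (3.50%), 496 higher and 461 lower, and by 2533 with the replicate number as a block.

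Among the other probes well above background on each of the 4 TE arrays, the 4 with the largest non-overlapping rise had adjusted p-values between 0.0559 and 0.396 in limma. Probe Z00063059-1, whose sequence is given above, read -2.06 and -1.82 in wild type and 0.95 and 0.28 in null cells, a difference of 2.56 ± 0.23 (SE) with an adjusted p of 0.0559. Probe Z00071747-1 read -0.13 and -0.84 in wild type and 2.31 and 1.86 in null cells, a difference of 2.57 ± 0.26 (SE) with an adjusted p of 0.0692. Probes Z00063710-1 and Z00012423-1 differed by 2.56 ± 0.43 and 2.38 ± 0.25 (SE), with adjusted p-values of 0.396 and 0.0851. That no wild-type array reached the lower of the null arrays follows from how the 4 were picked.

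The 4 largest on the lower side, by the same criterion, had adjusted p-values between 0.0559 and 0.426 in limma. Probe Z00046024-1 read 3.02 and 2.84 in wild type and 0.60 and 0.18 in null cells, a difference of -2.53 ± 0.28 (SE) with an adjusted p of 0.0965. Probe Z00059237-1 read 0.56 and 0.15 against -2.37 and -1.93, and Z00070082-1 read 0.38 and 0.38 against -2.51 and -1.74. Their differences were -2.51 ± 0.23 and -2.50 ± 0.24 (SE), with adjusted p-values of 0.0559 and 0.0642. Probe Z00075211-1 read -1.13 and -0.83 in wild type and -3.94 and -2.78 in null cells, and its wide spread between null arrays gave an adjusted p of 0.426.

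Detection gave a further view of transcripts that may be off in one genotype. Of 27360 tested probes, 186 were well above background on both null arrays and neither wild-type array, and 180 had the reverse. In all, 2815 were well above background on some but not all TE arrays. Such a probe could enter the tested set through the detecting group alone. How often such a split arises without a genotype effect was not tested. For such a probe the sample signal gives only a lower limit of the fold, taken against the lowest signal called above background or the probe's own, whichever is higher on each array. On null array 2 that lowest log2 signal was 4.02, against 6.31 to 6.45 on the other TE arrays. Folds for probes off in null cells therefore rest on the probe's own undetected signal there and are not firm lower limits. Probe Z00035687-1 was at least 6.49-fold higher in null cells, with log2 sample signals of 6.27 and 6.44 in wild type and 8.94 and 9.21 in null cells, and a limma adjusted p of 0.305. Probe Z00062579-1 was at least 3.28-fold higher, with log2 ratios of -0.29 and -0.06 in wild type and 1.56 and 1.38 in null cells and an adjusted p of 0.0559. Probe Z00019934-1 was 2.21-fold lower in null cells by this measure. Its mean log2 ratios were 1.27 in wild type and -0.094 in null cells, with a limma adjusted p of 0.0559. Detection and ratio did not always match. For probe Z00078199-1 the mean sample signal was at least 3.61-fold higher in null cells, while its log2 ratio differed by -0.07 ± 0.12 (SE). The higher mean was carried by null array 1 at 9.67, since null array 2 read 6.67 against 6.22 and 6.32 in wild type. Probe Z00012235-1 had a sample signal 2.21-fold lower in null cells by the same measure, and its log2 ratio differed by 0.02 ± 0.17 (SE).

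With the background correction used here, effect sizes were small at every expression level. The 27360 probes were divided into 5 bins of 5472 by mean TE sample signal. The SD of the genotype difference was 0.177, 0.276, 0.316, 0.308 and 0.269 log2 units from the dimmest to the brightest bin. In the same order, the spread between arrays of a genotype, put on the scale of a difference of 2 means, was 0.208, 0.347, 0.450, 0.427 and 0.354. The genotype difference was the smaller of the 2 in every bin, and over all probes the SDs were 0.274 and 0.369. That spread includes what same-numbered arrays share. The spread between the numbered pairs' differences, on the same scale, was 0.193, 0.303, 0.334, 0.276 and 0.225. It was larger than the genotype SD in the 3 dimmer bins and smaller in the 2 brightest, and 0.272 over all probes. The median absolute difference was 0.096 in the dimmest bin and 0.142 in the brightest.

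The differences over 2-fold without overlap sat mainly at middle levels. Higher in null cells were 2, 15, 17, 23 and 9 probes from the dimmest to the brightest bin, and lower were 3, 16, 26, 18 and 7. The 6 probes that passed the test lay in the second bin (3 lower), the third (1 higher, 1 lower) and the fourth (1 lower). In the dimmest bin only 42.8% of probes rose well above background on every TE array, against 97.6% in the second, so the narrow spread there covers many signals near background. With the scanner's own processed signals in place of normexp-corrected ones, the SD in the dimmest bin was 0.601 and in the second 0.502.

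**Figure D2:**
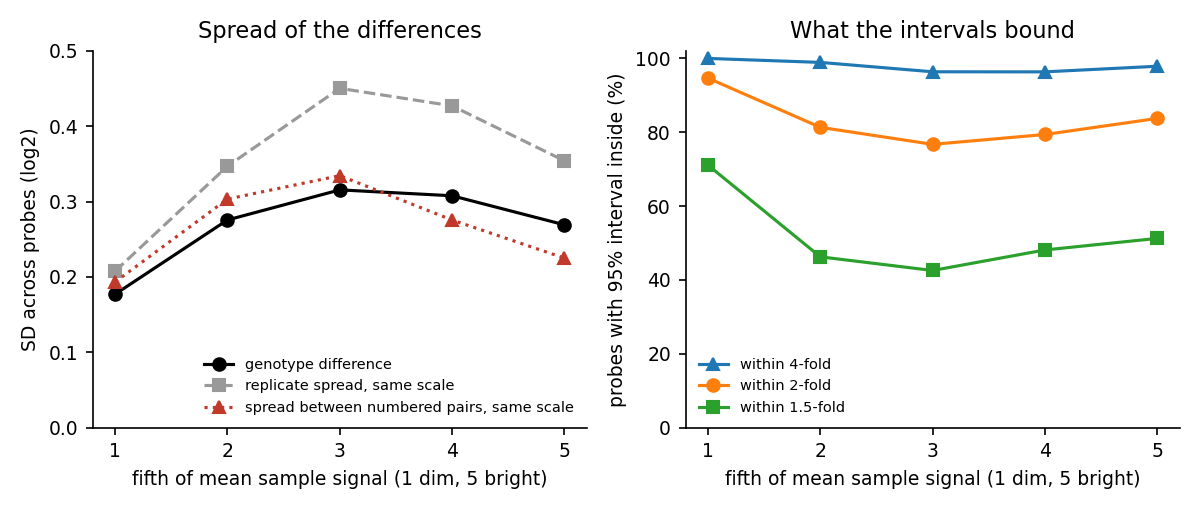
Left, the SD across probes of the genotype difference the spread between arrays of a genotype and the spread between the numbered pairs, on the same scale (log2), by bin of mean TE sample signal, 1 the dimmest and 5 the brightest, with 5472 probes each; right, the percentage of probes whose 95% interval lies within 1.5-fold, 2-fold and 4-fold. The genotype SD is below the spread between arrays in each bin, at 0.269 against 0.354 in the brightest, where it is above the 0.225 between pairs, and the share within 2-fold is lowest in the third, at 76.7%.

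The intervals show what was bounded. In limma's fit, the 95% interval of the genotype difference lay within 2-fold in both directions for 22742 of 27360 probes (83.1%). A 2-fold rise lay outside it for 24582 probes and a 2-fold fall for 24853. The share within 2-fold was 94.6% in the dimmest bin, 81.3%, 76.7% and 79.3% in the next 3, and 83.7% in the brightest. With the scanner's processed signals the SD of the difference in the dimmest bin was 0.601 against 0.177. Shares by bin are not given for those signals, so the 94.6% holds for the correction used here. Tighter limits were met less often, with 51.8% of probes within 1.5-fold and 97.8% within 4-fold. At every probe outside the 22742, a change of 2-fold or more in some direction was not excluded. For 1899 probes the interval reached over 2-fold to each side of the estimate. Some larger observed differences did not pass the test, such as 2.56 log2 units at Z00063059-1, a probe named for the size of its difference. With the TE arrays alone, 74.5% of probes were within 2-fold. These are intervals per probe, not adjusted for the number of probes.

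At the other end, 25 probes had an interval wholly beyond 2-fold, 11 higher and 14 lower in null cells. Named for the narrowest bound, probes Z00022550-1, Z00000895-1 and Z00057558-1 each differed by 0.00 in log2 units. Their intervals excluded any change over 1.19-fold under this normalization. With median centring they differed by -0.22, -0.19 and -0.23, and in the sample channel alone by -0.17, 0.34 and 0.018, of which 0.34 lies beyond that limit. Z00022550-1, for example, read a mean of 0.613 ± 0.010 in wild type and 0.615 ± 0.0053 in null cells (SD, n = 2 each). Z00057558-1 shares a run of 20 bases with 2 other probes on the array, the only one of the 30 named probes that shares such a run.

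The replicate numbers gave a second view. The difference of null array 1 from wild-type array 1 and that of null array 2 from wild-type array 2 had a correlation of 0.00624 across 27360 probes, which are not independent replicates. The first pair was the wider, with an SD of 0.459 against 0.296, and with 1209 against 258 probes over 2-fold. Only 26 probes were over 2-fold higher in both pairs and 43 lower, while 36 were over 2-fold in opposite directions. By bin of signal, the correlation of the pairs was -0.088, -0.096 and -0.065 in the 3 dimmest and 0.152 and 0.270 in the 2 brightest.

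Arrays with the same number nevertheless moved together apart from genotype. The difference of wild-type array 1 from 2 and that of null array 1 from 2 had a correlation of 0.516 across probes, rising from 0.133 in the dimmest bin to 0.729 in the brightest. With the replicate number as a block, 5 probes passed in limma (0.0183%), of which 3 were among the 6 of the unblocked fit. The 3 were Z00048585-1, Z00036741-1 and Z00062996-1, with block adjusted p-values of 0.0225, 0.0451 and 0.0451. Z00046024-1, lower in null cells, and Z00071747-1, higher, passed with the block and not without it, each at 0.0451, and Z00070209-1, Z00056538-1 and Z00076280-1 did not, at 0.0961, 0.125 and 0.109. The labels do not say what a number stands for, so the blocked values are given as a second analysis.

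**Figure D3:**
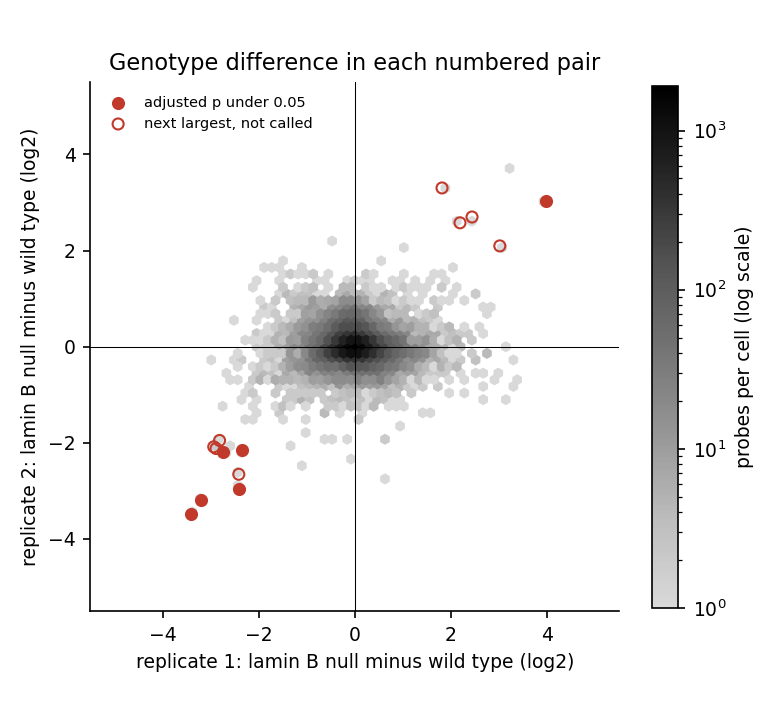
The null minus wild-type log2 difference of the arrays numbered 2 against that of the arrays numbered 1, over 27360 probes, with the probes that passed the test as filled circles, the next largest as open circles, and the shade giving the number of probes. The cloud is wider along the first pair, with an SD of 0.459 against 0.296, and has no slope, with a correlation of 0.00624.

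Wild-type array 1 stood apart from the other 3 TE arrays. Of the 24083 probes well above background on all 4, it differed by over 2-fold from the mean of the other 3 at 1838 (7.63%), 874 higher and 964 lower. The same count was 489 (2.03%) for wild-type array 2, 154 (0.639%) for null array 1 and 448 (1.86%) for null array 2. The SDs of these differences were 0.542, 0.359, 0.263 and 0.353 log2 units. Its distance was in the sample channel, whose SD from the other 3 was 0.612 against 0.333 to 0.437 for the other arrays, while its reference channel had an SD of 0.233, inside the 0.202 to 0.247 of the others. The share of probes it had over 2-fold apart was 0.365% in the dimmest bin, 11.6% in the third and 7.47% in the brightest.

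The probes highest on that array were lower on each of the others, a gap they were picked for. Probe Z00074671-1 read 0.64 on wild-type array 1 and -2.42, -2.33 and -2.64 on wild-type array 2 and null arrays 1 and 2. Probe Z00075102-1 read 0.53 against -2.40, -2.12 and -2.95. Probe Z00018801-1 read 3.86 against 1.44, 1.11 and 0.15. The genotypes overlap at the first 2 of these, where the other wild-type array lies between the null arrays.

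The probes lowest on it showed a second array on the same side. Probe Z00052446-1 read -1.89 on wild-type array 1 and 3.77 on wild-type array 2, and 1.30 and 3.82 on null arrays 1 and 2. Probe Z00076937-1 read -1.39 and 3.29 in wild type and 1.34 and 3.20 in null cells, and Z00016976-1 read -1.48 and 3.09 against 1.19 and 2.99. At all 3 the arrays numbered 2 were nearly equal and null array 1 lay between them and wild-type array 1. The 95% interval of the genotype difference at Z00052446-1 ran from -2.61 to 5.83, so neither a large rise nor a large fall was excluded there.

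**Figure D4:**
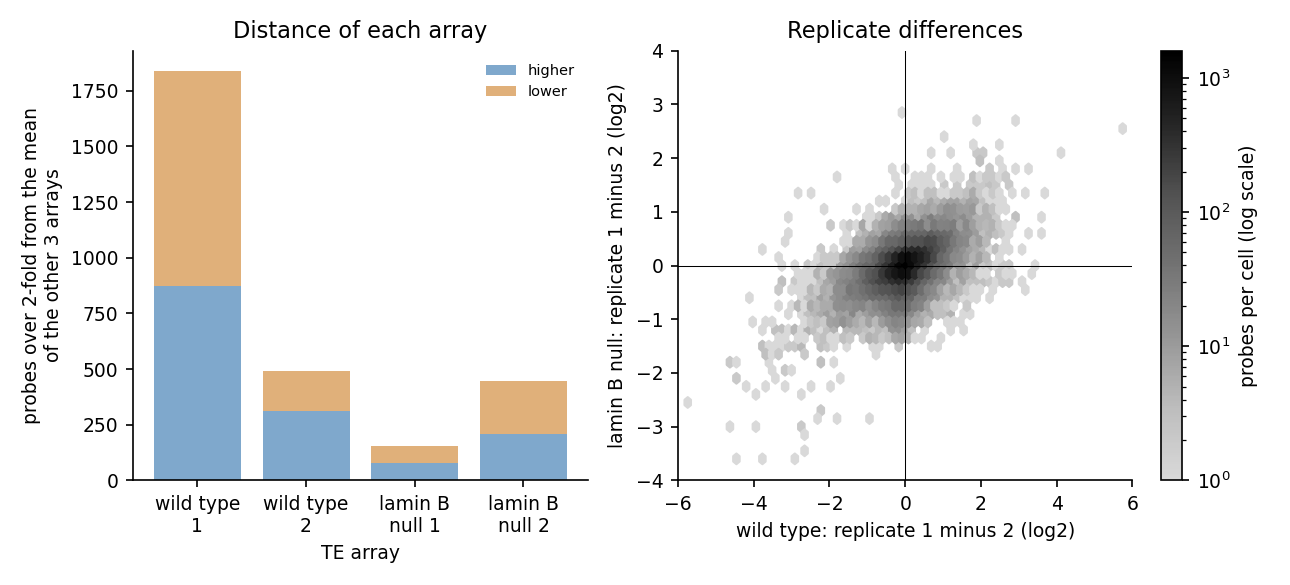
Left, the number of probes over 2-fold higher or lower on each TE array than the mean of the other 3, of 24083; right, the log2 difference of null array 1 from 2 against that of wild-type array 1 from 2, the shade giving the number of probes. Wild-type array 1 has 1838 such probes against 154 for null array 1, and the replicate differences slope upward with a correlation of 0.516.

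Which probes passed a 2-fold difference changed when that array was left out. Without it the SD of the genotype difference was 0.287, against 0.274 with it, and 95 probes were over 2-fold higher and 169 lower, against 113 and 123. Of the 136 probes that differed by over 2-fold without overlap, 62 were still over 2-fold the same way, and of the 236 by means alone, 68 were. Among the 6 probes that passed, Z00048585-1, Z00062996-1 and Z00070209-1 still passed in limma without it, with adjusted p-values of 0.0129, 0.0266 and 0.0266. Z00036741-1, Z00056538-1 and Z00076280-1 kept differences of -3.06, -2.33 and 3.39 but had adjusted p-values of 0.0651, 0.0784 and 0.0953.

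The same contrast in ESCs shares no array with that in TE cells, though both tests share the estimate of spread and the reference pool, and the same lines may supply both. In ESCs 34 probes passed in limma (0.124%), and all 6 probes that passed in TE cells were among them, each in the same direction. Z00076280-1 rose by 6.47 log2 units in ESCs against 3.51 in TE cells, and Z00048585-1 differed by -1.94 against -3.44. Z00036741-1, Z00070209-1, Z00062996-1 and Z00056538-1 differed by -2.50, -2.91, -1.76 and -3.60 in ESCs. Of the 34, 29 did not overlap in TE cells in the same direction, and 22 differed there by over 2-fold in that direction. Over all tested probes, 23.4% did not overlap in TE cells in either direction and 0.863% differed in mean by over 2-fold.

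The genotype differences were also set side by side for the 2 cell types. Over all 27360 probes the genotype differences in TE cells and ESCs had a correlation of 0.20. Over the 136 probes over 2-fold without overlap in TE cells it was 0.72, both descriptions across probes. Choosing probes for a large TE difference raises a correlation by itself, so the 2 values do not show that likeness depends on effect size. Of those 136, 104 had the same sign in ESCs and 32 the opposite, and the ESC arrays did not overlap either at 78 of the former and 13 of the latter. Of the 21 probes at an adjusted p of 0.10, 20 had the same sign in ESCs and 15 passed there. Of the 136, 46 were at least 2-fold the same way in ESCs, 1 was at least 2-fold the opposite way, and 68 were less than 1.41-fold apart. The shares of all 27360 probes with the same sign, without overlap or over 2-fold in ESCs are not given. Whether these counts exceed those shares was not tested, so they do not show that effects are shared. Probe Z00046024-1 is one that differed in TE cells, with its ESC ratios at -0.10 and -0.61 in wild type and 0.03 and -0.62 in null cells, a difference of 0.05 against -2.53. Probe Z00063059-1 read -1.69 and -1.89 in wild-type ESCs and -0.71 and -0.67 in null ESCs, a smaller gap than in TE cells, and the difference between the gaps had a limma adjusted p of 1.

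No probe's genotype effect differed between the cell types at an adjusted p of 0.05 in limma (0%), where 597 had an unadjusted p under 0.05 and the smallest adjusted p was 0.132. Without wild-type TE array 2 the count was 104. With the replicate block it was 1, at an adjusted p of 0.042. The smallest unblocked p belonged to Z00032719-1, which read -1.31 and -1.37 in wild type and -1.10 and -0.64 in null TE cells, a difference of 0.47 ± 0.18 (SE). In ESCs it read 1.97 and 2.26 in wild type and -1.06 and -1.06 in null cells, a difference of -3.17. The probe was well above background on 1 TE array of each genotype. For Z00046024-1 the effects differed by -2.59 ± 0.40 (SE) with an adjusted p of 0.846, so its difference between the cell types did not pass either.

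**Figure D5:**
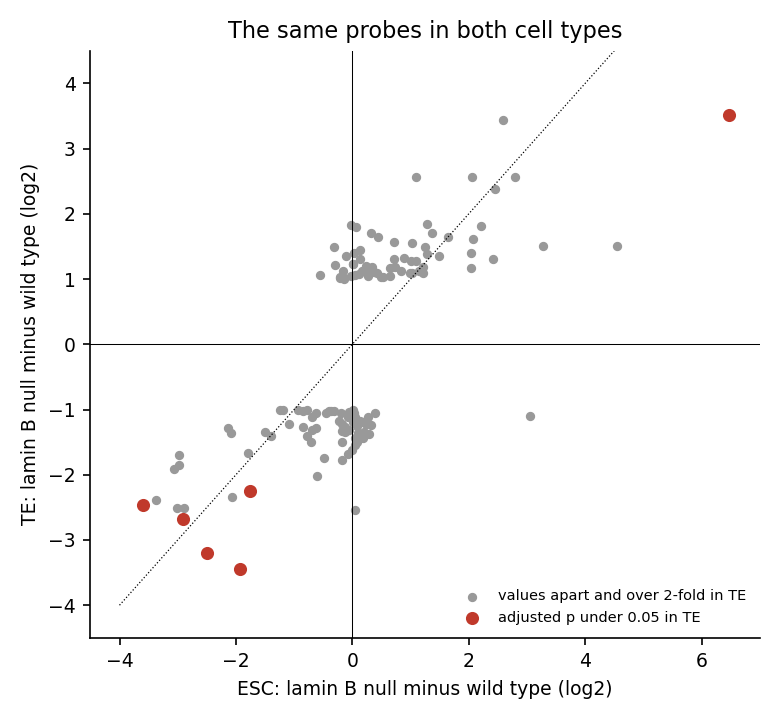
The null minus wild-type log2 difference in TE cells against that in ESCs for the 136 probes that were over 2-fold apart without overlap in TE cells, in grey, with the 6 that passed there in red and a dotted line where both are equal. The red points lie in the quadrants of equal sign, from 3.51 in TE cells and 6.47 in ESCs at Z00076280-1 to -3.44 and -1.94 at Z00048585-1.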

How the data were processed

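Per the file headers, the authors scanned each two-colour Agilent array with Feature Extraction 9.5.1.1, and the deposited scanner files give mean and background intensity per spot and the log10 of the red to green ratio. The authors' deposited value table matched, array by array, the probe's mean log10 reference signal minus that log10 ratio (correlations of 0.9998 or more, slopes 0.981 to 1.01, medians 2.27 to 2.33), so it runs as sample over reference and served as an alternative.

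From the intensities, limma 3.58.1 in R 4.3.3 made normexp background correction (offset 50), loess within each array with control and outlier spots at weight 0, and the log2 ratio of sample over reference. Spots of one probe were averaged. Probes well above background on both arrays of a group were tested with 1 fit of 4 group means on all 8 arrays, with Benjamini-Hochberg adjustment. The code of the fit was tried on simulated data with independent noise on each array. Those data lacked the link between same-numbered arrays, so they do not show how the fit performs here. The named probes were those that passed and the next 4 on either side by difference without overlap. Those 4 were taken among probes well above background on all 4 TE arrays. Also named were the 3 with the largest fold detected in a single genotype and the 3 farthest out on wild-type array 1 on either side. The last were the 3 with the narrowest bound near 0 in the brightest bin, and the smallest p for a difference between cell types. Z00055038-1 was chosen after its values were seen. The members, lists and rules were chosen with earlier results of these data known. Sample signals are Aquantile-normalized across arrays. Only 2 arrays per group limit the precision. Probe sequences of some transcripts are not reported here.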

Additional observations from a re-analysis of the deposited data

Results flagged for a closer look

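At 2 of the named probes both null arrays lay on one side of both wild-type arrays in TE cells and on the opposite side in ESCs. Probe Z00032719-1 differed by 0.47 in TE cells and by -3.17 in ESCs, a difference between the effects of 3.65 ± 0.26 (SE), for which the limma adjusted p was 0.132. In TE cells its signal was near background. Probe Z00055038-1 read -0.35 and 0.23 in wild type and -1.43 and -0.88 in null TE cells, a difference of -1.09 ± 0.53 (SE). In ESCs it read 0.39 and -0.75 in wild type and 3.47 and 2.27 in null cells, a difference of 3.05. The effects differed by -4.14 ± 0.74 (SE), for which the limma adjusted p was 1, and it was the probe that passed with the replicate block, at 0.042.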

How the results depend on the processing

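With the replicate number as a block, 5 probes passed the TE comparison against 6 without it, and 1 against 0 passed for a difference between cell types; same-numbered TE arrays moved together (correlation 0.516), but the labels do not tie the numbers to a line or day. The TE count was 0 with the TE arrays alone, with or without the block, with median centring, with the deposited values and with probes above background on every TE array, where 399, 1009, 283, 713 and 842 had an unadjusted limma p under 0.05. It was 1 with the processed signals, with a trended robust variance and without both TE arrays numbered 1, 2 with array weights, 10 in the sample channel alone, and 21 both without background subtraction and at an adjusted p of 0.10. Leaving out 1 array gave 0 to 1187. The count for a difference between cell types was 1 without background subtraction and 1 without both arrays numbered 1, and 0 to 104 with 1 array left out. The number of probes bounded within 2-fold, 22742 here, was 10314 of 17083 with the deposited values and 37147 of 41882 with no filter on dim probes. The causes of these shifts were not tested. No probe that passed changed sign in an alternative that measured it. Without wild-type array 1, the differences at Z00052446-1, Z00076937-1 and Z00016976-1, which did not pass, went from 1.61, 1.32 and 1.28 to -1.22, -1.02 and -1.01. Signals near background limit what dim probes can show.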
